A study of Mus musculus with 3 samples.

Results

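The capillary endothelial cells described here were 532 cells found by their RNA in single-cell libraries of mouse intestinal organoids. They were chosen by measured counts. A cell entered when its barcode was present in all 3 libraries of the series, at most 20% of its UMIs came from mitochondrial genes, it had 2 or more UMIs of Gpihbp1 and Rbp7 together, and it had none of Prox1, Mmrn1, Ackr1, Selp, Gja5 and Bmx. A UMI tags 1 captured RNA molecule. The 532 cells were 16.9% (95% Clopper-Pearson interval 15.6 to 18.3) of the 3145 cells with a shared barcode within the mitochondrial limit, and the 3 libraries held 34185 barcodes in all, with each shared barcode counted 3 times.

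The series held 3 groups with 1 library each, made from small intestinal organoids of C57BL/6 mice aged 7 to 8 weeks, at passage 3 and culture day 6. All 3 groups received 2 doses of 2 mg tamoxifen. WT organoids were wild type and were analysed 21 days after tamoxifen. LApc organoids (Lgr5-CreERT2;Apc fl/fl, 29 days) and LApcL organoids (the same alleles together with Lef1 fl/fl, 21 days) carried a tamoxifen-induced Cre driven from Lgr5, a gene of epithelial stem cells, so that deletion was aimed at the epithelium. The labels say that cells were sorted but name no gate, and no group had a replicate.

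Of the 11411, 10706 and 12068 cells in the WT, LApc and LApcL libraries, 3195 in each carried a barcode found in all 3. The shared barcodes held the same cells in all 3 libraries, so only their counts in the WT matrix are described unless another library is named. Of the 532 capillary cells, 532 in LApc and 532 in LApcL had, among 3195 candidates, their closest expression profile under their own barcode, by correlation over 2601 genes. Their UMI totals per barcode correlated with those in WT at r = 0.992 in LApc and r = 0.985 in LApcL, values that describe cells and not samples. The 3 matrices were therefore neither replicates nor a comparison of genotypes. Groups were not tested against each other, so that p-values are absent. The labelled tissue is epithelial, but the capillary cells had 3 UMIs of Epcam and 0 of Cdh1, both defining genes of epithelium, among 1186924 UMIs. How these cells came to be in all 3 libraries was not tested.

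Capillary endothelium forms the wall of the smallest blood vessels, across which oxygen, lipids and hormones pass to the tissue. Gpihbp1 carries lipoprotein lipase from the tissue side to the vessel lumen, where the enzyme frees fatty acids from circulating lipoproteins, and Rbp7 is a retinol-binding protein found in capillary endothelium. Of the genes required to be absent, Prox1 and Mmrn1 mark lymphatic endothelium, Ackr1 and Selp venules, and Gja5 and Bmx arteries. Rgcc, a cell cycle regulator, and Flt1, a receptor for Vegf, are further capillary markers that the choice did not use. On GRCm38, with the GENCODE M21 annotation, Gpihbp1 lies at chr15:75596628-75599481 on the forward strand. Rbp7 (chr4:149449687-149454978), Rgcc (chr14:79288756-79301645) and Flt1 (chr5:147561604-147726011) lie on the reverse strand.

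Every shared cell was accounted for. Gpihbp1 and Rbp7 reached 2 UMIs in 617 cells within the mitochondrial limit, and 85 of these were left out for a UMI of the 6 other genes, most often of Prox1 (42 cells) or Mmrn1 (36 cells). A further 50 shared cells were over the mitochondrial limit, and 0 of them otherwise met the rule. Among the 532 cells, 236 had both genes, 236 had Gpihbp1 alone and 60 had Rbp7 alone, with sums from 2 to 25 UMIs and a median of 3. The capillary cells were shallow, with a median of 1853 UMIs (750 to 7495) and 1000 genes, against a median of 2266 UMIs in the 2613 other shared cells. Intervals throughout are at the 95% level and cover counting error only, since reads and cells of 1 library are not independent samples.

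Levels of genes outside the rule were set side by side across the threshold. Levels are UMIs summed over the cells of a set and scaled to 1e6 UMIs (CPM). Rgcc stood at 616 CPM in the 183 cells with exactly 2 UMIs of Gpihbp1 and Rbp7, and at 468 CPM in the 294 cells with 1 UMI and none of the 6 other genes. It was 246 CPM in 742 cells without a UMI of any of the 8 rule genes, called unmarked cells below, and 989 CPM in the 186 cells with 5 or more. Flt1 ran from 1232 CPM in unmarked cells to 1517 CPM at 1 UMI and 1691 CPM at 2 UMIs, then to 1899 CPM at 3, 1567 CPM at 4 and 1847 CPM at 5 or more. Col13a1 was likewise uneven above the threshold, at 178 CPM with 3 UMIs and 117 CPM with 4. Cells just below the threshold thus also held Rgcc and Flt1, at lower levels than those with exactly 2 UMIs. Median depth was 1646.5 UMIs in the cells with 1 UMI of the rule genes, 1640.0 with 2 and 2299 with 5 or more, and its part in this order was not tested.

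**Figure D1:**
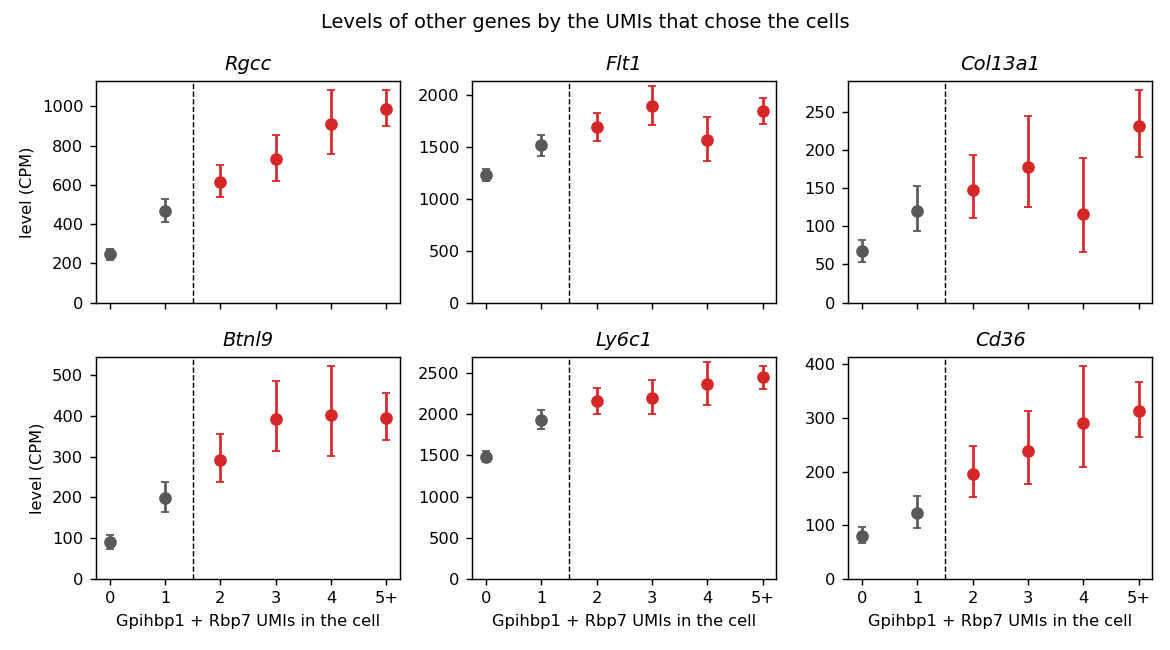
Level in CPM of 6 genes that the rule did not use (vertical axes, from 0) by the UMIs of Gpihbp1 and Rbp7 in the cell (horizontal axis), for cells without the 6 excluded genes. Red points are capillary cells, grey points lie outside the threshold (dashed line), and bars are exact 95% Poisson intervals. Rgcc goes from 246 to 989 CPM across the 6 steps.

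Both further markers named with the label, which the rule did not use, were compared between sets of cells. Rgcc was at 822 CPM (772 to 876) in capillary cells and Flt1 at 1778 CPM (1703 to 1855). Both were lower in the venule-marked, lymphatic-marked and unmarked sets of shared cells. Venule-marked cells (255 cells with 2 or more UMIs of Ackr1 and Selp and none of the other 6 rule genes) had 10.4 CPM of Rgcc and 702 CPM of Flt1. Lymphatic-marked cells (612 cells, cut in the same way on Prox1 and Mmrn1) had 19.6 and 27.4 CPM. Only 14 cells were arterial-marked on Gja5 and Bmx, too few for levels of single genes. Unmarked cells had 246 CPM of Rgcc and 1232 CPM of Flt1, between the capillary and the other sets.

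Shares of cells were compared at 1 depth, because the WT library also held far deeper cells. After each cell was thinned to 1000 UMIs, which left out 49 shallower capillary cells, Rgcc was found in 49.3% (44.7% to 53.8%) of capillary cells. It was found in 10.8% of the other shared cells and in 1.74% of 1208 deep WT-only cells, whose barcodes occurred in the WT library alone with at least 10000 UMIs and which held the epithelial genes. Without thinning the shares were 65.8% at a median of 1853 UMIs and 27.6% at 38073.5 UMIs. For Flt1 the thinned shares were 75.8% (71.7% to 79.5%) in capillary cells and 0.0828% in deep WT-only cells, and the unthinned shares 88.5% and 0.414%. Both genes were thus found in capillary cells above their share in deep WT-only cells at equal depth.

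General endothelial genes were at high levels as well. Pecam1, an adhesion molecule of endothelial junctions, was at 1375 CPM (1309 to 1443) in capillary cells and 1.002 CPM in deep WT-only cells. Cdh5, the endothelial cadherin, was at 777 CPM against 0.102 CPM. Plvap, which forms the diaphragms of fenestrae and caveolae, was at 2587 CPM against 0.143 CPM.

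**Figure D2:**
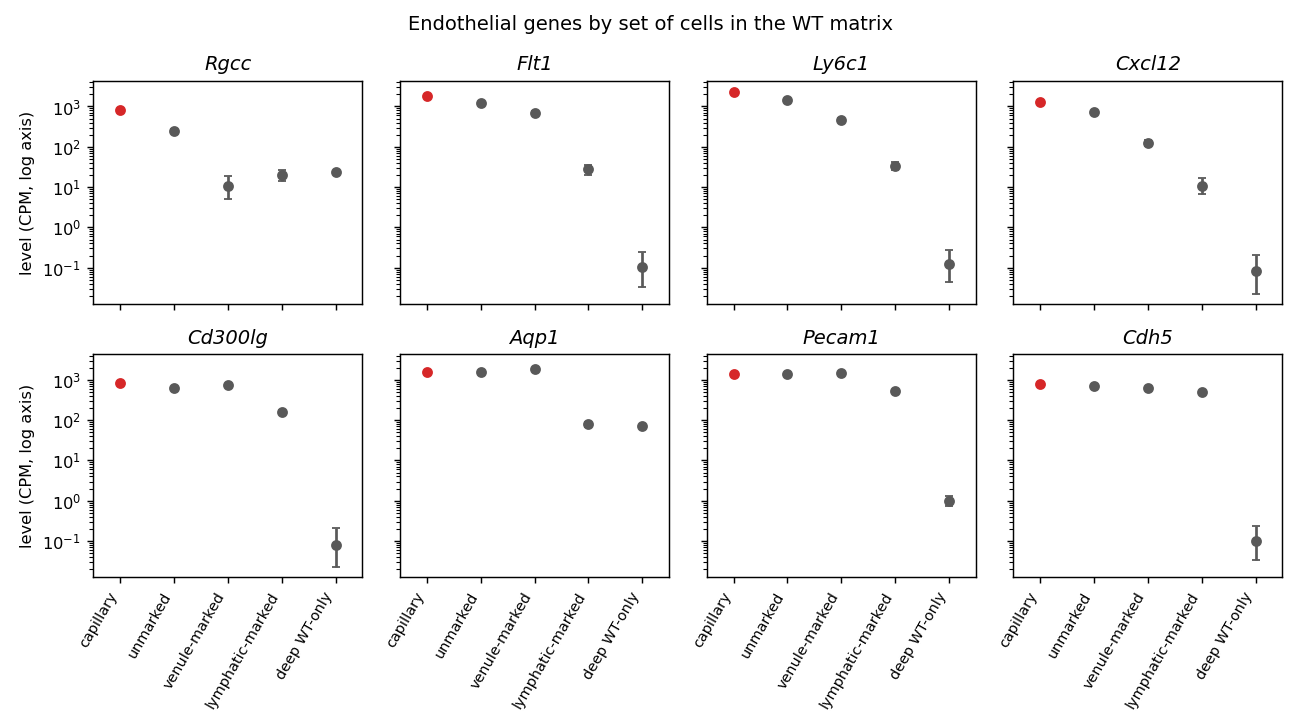
Level in CPM (log axis) of 8 endothelial genes in 5 sets of cells of the WT matrix, with exact 95% Poisson intervals. Capillary cells (red) and unmarked cells hold the highest levels of Rgcc, Flt1, Ly6c1 and Cxcl12, while Pecam1 and Cdh5 lie at 503 CPM or more in each shared set and near 1 CPM or below in deep WT-only cells.

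Markers of other cell types were few. The 12 epithelial genes together reached 36.2 CPM in capillary cells, 41.0 CPM in the other shared cells and 16644 CPM in deep WT-only cells. A summed 98.6 CPM came from 11 genes of mural cells, which wrap small vessels, of which 9 had a UMI. Rgs5 had 30 UMIs, Pdgfrb 16, Notch3 16, Des 14 and Abcc9 13, while Acta2 and Cspg4 were at 0. Fibroblast genes summed to 13.5 CPM, lymphocyte genes to 15.2 CPM and macrophage and dendritic cell genes to 31.2 CPM, with C1qa, C1qb and C1qc at 0 UMIs. Red blood cell genes summed to 37.1 CPM, below the 1569 CPM in venule-marked cells, and platelet genes to 7.58 CPM. A count of 0 allows up to 2.53 CPM here, taken as 3 counts over the set.

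The sequences just upstream of 3 of the marker genes are shown because endothelial genes are known as targets of ETS factors, which bind around a GGAA core. Capitals mark AGGAAG or its reverse CTTCCT, searched on both strands, and neighbouring matches may overlap. Each run holds the 250 bases before the RefSeq gene start on GRCm38.p6, read along the gene's strand, which is the reverse strand for all 3. The Rbp7 window, of a gene that the rule used, is chr4:149454969-149455218, the Rgcc window chr14:79301636-79301885 and the Flt1 window chr5:147726012-147726261.
Rbp7: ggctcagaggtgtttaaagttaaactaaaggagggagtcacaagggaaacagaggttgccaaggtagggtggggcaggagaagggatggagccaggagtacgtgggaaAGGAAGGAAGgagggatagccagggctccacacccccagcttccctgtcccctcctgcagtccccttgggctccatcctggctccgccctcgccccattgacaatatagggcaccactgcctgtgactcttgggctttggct
Rgcc: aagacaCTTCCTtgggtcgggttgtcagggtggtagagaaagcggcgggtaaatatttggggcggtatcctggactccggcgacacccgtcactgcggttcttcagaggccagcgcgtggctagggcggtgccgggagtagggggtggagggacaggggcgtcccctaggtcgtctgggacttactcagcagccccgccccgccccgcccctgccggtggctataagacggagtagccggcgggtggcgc
Flt1: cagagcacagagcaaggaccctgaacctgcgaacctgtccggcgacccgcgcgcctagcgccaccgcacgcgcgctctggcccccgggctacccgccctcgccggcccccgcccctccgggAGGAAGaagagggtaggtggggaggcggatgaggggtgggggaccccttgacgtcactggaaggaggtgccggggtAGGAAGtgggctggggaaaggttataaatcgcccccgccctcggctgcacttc
Rbp7 held 2 overlapping matches, 142 and 138 bases before the start, Rgcc held 1 at 244 bases and Flt1 held 2 at 129 and 53 bases. The motif was not particular to these genes: 29.5% of all 32851 windows held it, as did 27.9% of 190 windows of genes at least 2-fold higher in capillary cells. A match is a description of letters and not a bound site.

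Against the 2613 other shared cells, the capillary cells were higher in genes of capillary identity and lower in genes of lymphatic vessels and venules. Of 3472 genes at 50 CPM or more in either group, without the rule genes and mitochondrial genes, 187 (5.39%) were at least 2-fold higher and 288 (8.29%) at least 2-fold lower. The rule fixed much of this contrast, since it removed lymphatic, venous and arterial cells from the capillary group alone, so the values below are a description. Log2 ratios are those of CPM + 1, and the median over all compared genes was 0.05.

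Rgcc, already described by its levels, had a log2 ratio of 2.71 (2.59 to 2.86) with its 95% interval in brackets. Car4, a carbonic anhydrase on the lumen side of capillaries, led the ratios at 3.16 (2.78 to 4.003), from 66 UMIs, with 55.6 CPM against 5.34 CPM. Next came Ramp3, a partner of the adrenomedullin receptor, at 2.67 (2.37 to 3.11) and 114 CPM, and Col13a1, a transmembrane collagen, at 2.57 (2.33 to 2.90) and 184 CPM. Esm1, a proteoglycan of sprouting endothelium, was at 104 CPM against 18.8 CPM, a ratio of 2.41 (2.099 to 2.83). Igfbp3, which binds insulin-like growth factors, was at 649.6 CPM (605 to 697) against 129 CPM. The remaining genes among the 12 highest were Gm12002, Pcp4l1, Arap2, Prnd, Mcf2l and Piezo2, a channel opened by mechanical force, with ratios from 2.09 to 2.33 and levels from 58.1 to 182 CPM. Each of these 12 genes was lower in venule-marked and lymphatic-marked cells than in capillary cells.

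The lowest ratios belonged to genes at or near 0 UMIs in the capillary cells. Nts, the neurotensin precursor, had 3 UMIs in capillary cells and 929 CPM in lymphatic-marked cells, with a ratio against the other shared cells of -6.91 (-9.66 to -5.84). Alcam, an adhesion molecule, had 0 UMIs and was at least 28.9-fold lower than in the other shared cells, and Fibin, also at 0, at least 22.8-fold lower. Msr1, a scavenger receptor, had 1 UMI, Gdf10 1, Flrt3 1 and the alarmin Il33 1. Tnc, C3, Pcdh7 and Cyp1b1 had 3 to 6 UMIs. Lyve1, the hyaluronan receptor of lymphatic endothelium, had 20 UMIs, or 16.9 CPM against 1859.6 CPM in lymphatic-marked cells. All 12 of the lowest genes were higher in lymphatic-marked cells than in capillary cells.

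**Figure D3:**
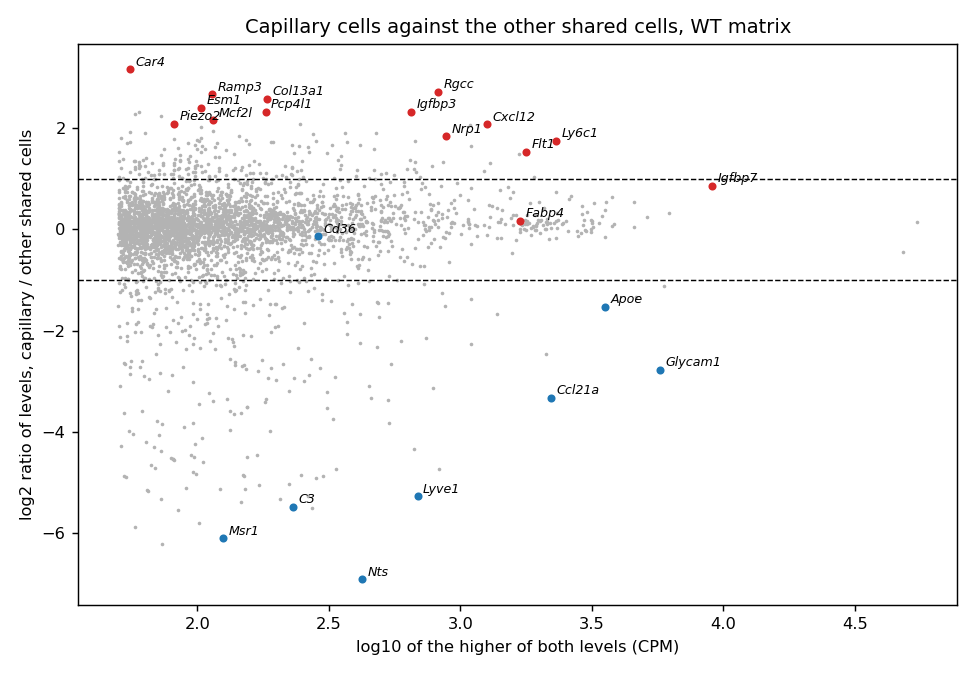
Log2 ratio of levels, capillary against other shared cells (vertical axis), by log10 of the higher of both levels in CPM (horizontal axis), for genes at 50 CPM or more in either group. Named genes are red above 0 and blue below, and dashed lines mark a 2-fold ratio. Among the labelled genes Car4 and Rgcc lie highest and Nts lowest, and Fabp4 and Cd36 lie near 0.

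Of 17 genes compared in the capillary list, 8 were at least 2-fold higher, 1 lower and 8 between, beside the 5.39% and 8.29% of all genes, and the median log2 ratio over the 20 genes with 10 or more UMIs was 0.91. Ly6c1, a surface protein of capillary endothelium, was at 2308 CPM against 685 CPM, with a ratio of 1.75 (1.68 to 1.82). Btnl9, a butyrophilin-like gene, was at 365 against 97.4 CPM, and Ly6a at 1672 against 595 CPM. Slc9a3r2 and Cd200, a ligand that restrains myeloid cells, were also past 2-fold, at 1.74 and 1.20. Aqp1, a water channel, and Cd300lg did not reach 2-fold, at 0.73 (0.66 to 0.81) and 0.87 (0.76 to 0.97). Timp4, a metalloprotease inhibitor, was the single list gene at least 2-fold lower, with 10.95 against 147 CPM and 274 CPM in venule-marked cells.

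Genes that handle fatty acids were split. Of 11 compared, 3 were at least 2-fold higher and 2 lower, beside 5.39% and 8.29% of all genes. The median over 18 genes was -0.21, and 0.09 with the same cells counted in the LApc matrix. Fabp4, a fatty acid binding protein, was at 1691 CPM (1618 to 1767) in capillary cells, 1501 CPM in the other shared cells and 2802 CPM in venule-marked cells. Cd36, a fatty acid transporter, was at 262 CPM against 288 CPM in the other shared cells, but at 14.6 CPM in venule-marked and 395 CPM in lymphatic-marked cells. Lpl, the lipase that Gpihbp1 carries, had 6 UMIs in the capillary cells, or 5.06 CPM against 19.0 CPM in the other shared cells. The 3 higher genes were Scarb1, a lipoprotein receptor, at 1.38 (1.26 to 1.51), the transcription factor Tcf15 at 1.53 (1.11 to 2.04) and the lipid droplet protein Plin2 at 1.06 (0.78 to 1.37). Both lower genes were Meox2, a transcription factor, at -3.45 and Apoe, a lipoprotein component, at -1.52.

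Receptors of Vegf were unevenly represented. Nrp1, a coreceptor, was at 884 CPM against 246 CPM, a ratio of 1.84 (1.73 to 1.96), and Flt1 at 1.54 (1.46 to 1.62). Kdr, the main signalling receptor, was at 787 CPM and 0.48 (0.38 to 0.58), and was about as high in lymphatic-marked cells at 774 CPM. Flt4, the receptor of lymphatic growth, was at 27.0 against 138 CPM. Ligands had few UMIs, with 28 of Angpt2, 20 of Vegfb, 10 of Vegfa, 7 of Vegfc, 9 of Pgf and 0 of Angpt1. In all, 2 of the 8 compared genes of this list were higher and 2 lower, beside 5.39% and 8.29% of all genes.

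Of the basement membrane and integrin list, 4 of 17 compared genes were at least 2-fold higher and 0 lower, beside 5.39% and 8.29% of all genes, with a median of 0.58. Sparcl1, a matricellular protein, was at 1101 against 353 CPM, and the collagen IV chains Col4a1 and Col4a2 at 1233 against 554 and 859 against 342 CPM. Sparc was the fourth, at 1.04 (0.97 to 1.11). Igfbp7, a secreted protein of vessels, was at 9051 CPM, with a ratio of 0.87 (0.84 to 0.90) that stayed under 2-fold.

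Several targets of Bmp and Tgf-beta signalling were higher as well. Id1 was at 471 against 157 CPM (log2 ratio 1.58, interval 1.44 to 1.74), Id3 at 625 against 273 CPM, and the inhibitor Smad7 at 120.5 against 51.6 CPM. These were the 3 higher genes of 11 compared in the Tgf-beta and Bmp list, and Tgfbr3 was the single lower one at -1.21, beside 5.39% and 8.29% of all genes. The receptors Eng and Acvrl1 stayed under 2-fold at 0.23 and 0.68.

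Genes of arteries and of Notch signalling were split. Among 18 arterial genes compared, 4 were at least 2-fold higher and 5 lower, beside 5.39% and 8.29% of all genes. The higher ones were Cxcl12, a chemokine, at 1259.6 against 297 CPM (log2 ratio 2.08, interval 1.99 to 2.18), the guidance cue Sema3g at 1.72, and the transcription factors Hey1 and Sox17 at 1.92 and 1.66. The lower ones were Clu at -2.46, Eln at -2.74, Mgp at -2.72, Jag1 at -1.87 and Fbln5 at -1.02. In the Notch list, Hey1, the receptor Notch4 (log2 ratio 1.46, interval 1.11 to 1.88) and the ligand Jag2 (log2 ratio 1.35, interval 1.03 to 1.72) were higher and the ligand Jag1 lower, of 8 compared. Dll4, the Notch ligand of arteries and sprouts, came close at 0.98 (0.73 to 1.24).

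Lymphatic and venous genes were mostly lower, in a contrast that the rule itself set by excluding 4 of their markers. Of 11 lymphatic genes compared, 10 were at least 2-fold lower and 0 higher, beside 8.29% and 5.39% of all genes, with a list median of -4.63, or -4.46 with genes at 0 UMIs set to their bound. Of 14 genes of veins and high endothelial venules, which let lymphocytes enter lymph nodes, 10 were lower and 1 higher, beside the same shares. The higher one was Aplnr, the apelin receptor, at 85.9 against 32.5 CPM (log2 ratio 1.38, interval 1.05 to 1.75). Vwf, a clotting factor of larger vessels, was at 10.95 CPM in capillary and 872 CPM in venule-marked cells. Nr2f2, which sets venous identity, was at 47.2 and 165 CPM. Icam1, a leukocyte adhesion molecule, was an exception at 687 CPM, with a ratio of 0.15 (0.04 to 0.26).

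The other lists are set beside the same 5.39% higher and 8.29% lower of all genes, to which several came close. Interferon response genes had 5 of 16 compared at least 2-fold higher and 0 lower. Rsad2, an antiviral enzyme, was at 246 against 57.4 CPM (log2 ratio 2.08, interval 1.88 to 2.32), and Irf7, Ifit3, Ifit1 and Isg15 at 1.25, 1.26, 1.17 and 1.06. Immediate early and heat shock genes, which can also rise when tissue is dissociated, had 2 of 16 higher, Hspa1a at 1.59 (1.29 to 1.93) and Hspb1 at 1.31 (1.23 to 1.40). Of the sprouting list, 2 of 8 were higher, Esm1 and Pdgfb, and 1 lower, Angpt2. Caveolae genes (9 compared), class I antigen presentation genes (13 compared) and class II genes (3 compared) had 0 genes past 2-fold in either direction. Leukocyte adhesion and chemokine genes had 3 of 13 higher (Cxcl12, the membrane-bound chemokine Cx3cl1 and the sialomucin Cd34) and 5 lower (Vcam1, Sele, Il33, Ccl2 and Cxcl10). Shear response and vessel tone genes had 0 of 14 higher and 4 lower, with Klf2, a transcription factor induced by flow, at 1284 against 1250.1 CPM. Junction genes had 1 of 12 higher, Pcdh1 at 1.29, and 1 lower, Cldn5, the main endothelial claudin, at 358 against 852 CPM. Of 14 general endothelial genes, Emcn and Sox18 were higher at 1.24 each and Cldn5 lower.

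**Figure D4:**
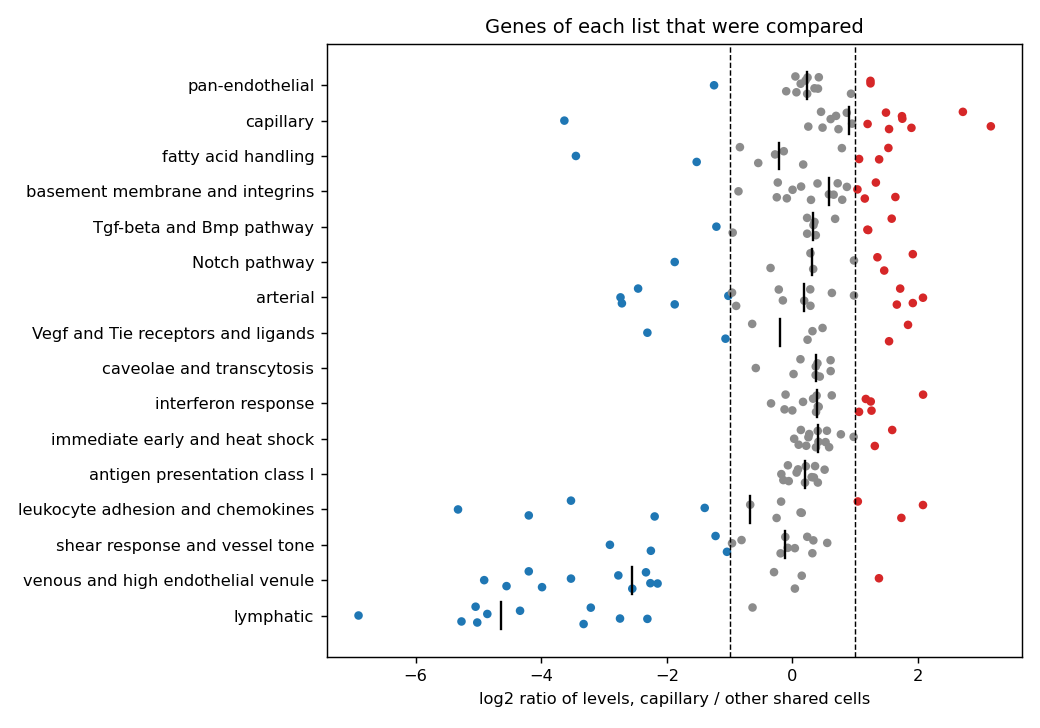
Log2 ratio of levels, capillary against other shared cells (horizontal axis), for the compared genes of 16 lists. Red points are at least 2-fold higher and blue points at least 2-fold lower (dashed lines), and black bars are medians over list genes with 10 or more UMIs. The capillary list lies to the right at a median of 0.91, and the venous and lymphatic lists to the left at medians of -2.55 and -4.63.

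Set against the 255 venule-marked cells alone, the capillary cells differed in more genes. Of 3351 genes compared, 374 (11.2%) were at least 2-fold higher and 234 (6.98%) lower, with a median over all compared genes of 0.17. Under a median-of-ratios scaling, which centres that median, 285 were higher and 299 lower. The venule-marked cells were deeper, at a median of 3556 UMIs, and with each cell thinned to 1000 UMIs 574 genes were higher and 460 lower. Igfbp3 had a ratio of 7.72 (6.43 to 11.33) and Rgcc of 6.17 (5.42 to 7.37). Esm1, Car4, Hey1, Sema3g and Mcf2l had 0 UMIs in venule-marked cells, where 3 counts over the set are 3.13 CPM, and were at least 33.15-fold, 17.8-fold, 17.8-fold, 29.4-fold and 36.65-fold higher in capillary cells.

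Of the capillary list, 9 of 17 genes were at least 2-fold higher and 1 lower, and of the sprouting list 5 of 7 and 1, beside 11.2% and 6.98% of all genes. Btnl9 was at 365 against 8.34 CPM, and Kdr at 787 against 199 CPM. Plvap and Aqp1 were at -0.02 and -0.25. Fatty acid genes were split again, with 5 of 9 higher and 3 lower: Cd36 was at 4.08 (3.40 to 5.05), while Fabp5 and Apoe were lower at -1.60 and -2.82. Of 16 immediate early and heat shock genes 10 were higher, among them Junb at 3585 against 1425 CPM. Fabp4 had a negative ratio of -0.73 (-0.81 to -0.64), short of 2-fold. Of 16 genes of the venous list, 13 were lower, and Glycam1, a sialomucin of high endothelial venules, stood at 22243 CPM in venule-marked cells and 841 CPM in capillary cells.

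That capillary level of Glycam1 came from few cells. Of its 998 UMIs, 939 lay in 4 cells, 618 of them in 1 cell, and the other 528 capillary cells had at most 4 UMIs each and 50.3 CPM in all. The 4 cells held 34 UMIs of Enpp2, 37 of Lrg1 and 9 of the fucosyltransferase Fut7. They also held 2 of Rgcc and 2 of Flt1, with 9 of Gpihbp1 and 8 of Rbp7. They met the rule and stayed in the set. Other genes of the venous list were not confined to these 4 cells. The other 528 cells held 1027 UMIs of Enpp2 (876 CPM), 233 of Lrg1 (199 CPM) and 17 of Fut7.

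Levels were also compared among the capillary cells. The 296 cells with an Rbp7 UMI were set beside the 236 without, a division made after values had been seen and on a rule gene. Each cell without Rbp7 had to hold 2 or more Gpihbp1 UMIs to enter, while 60 with Rbp7 held none, so the values describe sides that the choice itself shaped, with median depths of 1811.5 and 2048 UMIs. Of 3397 genes compared, 81 (2.38%) were at least 2-fold higher with Rbp7 and 63 (1.85%) lower. These counts moved strongly with the settings given in the closing section. Single genes are described by their intervals, but these cover counting error only and do not show whether few cells set a ratio. Glycam1 had a log2 ratio of -1.19 here with a wholly negative interval, although 618 of its 998 UMIs lay in 1 cell. How many cells carried each of the other differences in this division was not tested.

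In the capillary list, 1 of 16 compared genes was at least 2-fold higher with Rbp7 (Btnl9) and 0 lower, beside 2.38% and 1.85% of all genes, with a list median of 0.35 and Aqp1 at -0.68 (-0.82 to -0.55). Other genes past 2-fold were higher with Rbp7. Col13a1 was at 283 CPM with Rbp7 and 64.8 CPM without, a log2 ratio of 2.11 (1.60 to 2.69). Plpp3, a lipid phosphatase, was at 1512 and 574 CPM (log2 ratio 1.40, interval 1.21 to 1.59), and Cd36 at 351 and 156 CPM (log2 ratio 1.17, interval 0.81 to 1.55). Cxcl12 and Btnl9 had ratios of 1.05 (0.89 to 1.22) and 1.04 (0.74 to 1.35). Among interferon genes, Rsad2 was at 1.16 (0.79 to 1.56) and Ifit2 at 1.62 (0.69 to 2.78). Genes of mural cells moved with the division, at a summed 141 CPM (91 UMIs) with and 48.2 CPM (26 UMIs) without Rbp7, among them Rgs5 with 27 and 3 UMIs. Red blood cell genes had 43 UMIs with and 1 without. Their part in these differences was not tested. Both capillary markers outside the rule differed less, with Flt1 at 2199 and 1272 CPM and Rgcc at 941 and 679.7 CPM.

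Cells without Rbp7 were higher in another group of genes. Prnd, a prion-like protein of vessels, was at 137 CPM without and 18.5 CPM with Rbp7, a ratio of -2.82 (-3.90 to -2.00). Kit, the stem cell factor receptor, was at 176 and 43.3 CPM. Vim, the intermediate filament vimentin, was at 1656 and 714 CPM (log2 ratio -1.21, interval -1.38 to -1.05), and Cldn5 at 557 and 192 CPM (log2 ratio -1.54, interval -1.85 to -1.23). All 4 compared genes of class II antigen presentation were at least 2-fold lower with Rbp7, beside 1.85% of all genes: Cd74 at -2.07 (-2.58 to -1.62), H2-Ab1 at -1.86 (-2.72 to -1.13), H2-Aa at -1.69 (-2.54 to -0.96) and H2-Eb1 at -1.38 (-2.55 to -0.40). Class II genes are also used by macrophages, dendritic cells and B cells. Of 10 macrophage and dendritic cell genes 4 had a UMI, led by Fcer1g at 24, and their sum was 24.7 CPM with and 38.9 CPM without Rbp7, with C1qa, C1qb, C1qc and Adgre1 at 0. Of 10 lymphocyte genes 8 had a UMI, 3 UMIs in all with and 15 without Rbp7, among them the B cell genes Cd79a (2 and 6), Cd79b (0 and 2) and Ms4a1 (0 and 2). Some venule and lymphatic genes were also higher without Rbp7. Enpp2 was at 1191 CPM without and 646 CPM with it, and Ccl21a at 315 and 139 CPM. Lrg1 (246 and 212 CPM) and Lyve1 (16.7 and 17.0 CPM) differed less. Class II genes summed to 843 CPM in venule-marked and 372 CPM in capillary cells. The part of any of these cell types in the class II values was not tested. Pecam1 was at 1519 and 1255 CPM (log2 ratio -0.27, interval -0.42 to -0.13).

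**Figure D5:**
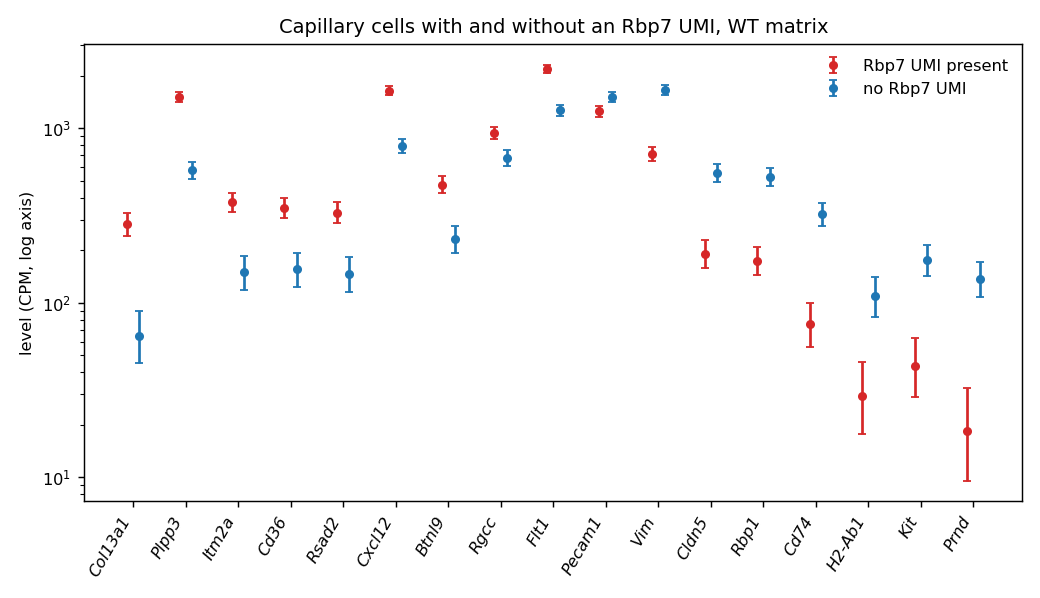
Level in CPM (log axis) of 17 genes in the 296 capillary cells with an Rbp7 UMI (red) and the 236 without (blue), with exact 95% Poisson intervals. Intervals of Col13a1, Plpp3 and Cd36 lie apart in favour of cells with Rbp7 and those of Prnd, Kit, Cd74 and Vim in favour of cells without.

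Sprouting genes were compared as well. Esm1 was found in 14.8% of capillary, 3.14% of other shared and 0% of deep WT-only cells, unthinned, and in 9.32%, 2.11% and 0% when thinned, where 0 of 1208 cells allows a share of up to 0.248%. Apln and Cxcr4 were each found in 16 capillary cells (3.01%), and in 0.497% and 0.0828% of deep WT-only cells. Esm1, Apln, which encodes the ligand of Aplnr, and the chemokine receptor Cxcr4 had at least 1 UMI in 100 cells (18.8%), a group chosen by these counts and deeper, at a median of 2423.5 UMIs against 1797. Prnd, not used to choose it, was at 168 CPM (123 to 223) there and 43.0 CPM (30.6 to 58.8) in the other capillary cells. Angpt2, a Tie2 ligand of sprouts, was at 50.1 (27.4 to 84.0) and 15.4 CPM (8.44 to 25.9), and Pdgfb, which recruits mural cells, at 247 and 151 CPM. Fabp4 went the other way, at 1130.0 CPM (1009 to 1262) against 1864 CPM (1776 to 1955). Intervals of the sprouting genes Adm, Nid2, Trp53i11, Mcam, Lxn and Kcne3 overlapped between these sets of cells, with Adm at 17.9 and 18.7 CPM. The genes that chose the group were also divided by Rbp7. Esm1 had 89 UMIs in cells with Rbp7 and 34 without, while Apln had 1 and 26 and Cxcr4 4 and 16.

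A further group was chosen by its counts of arterial genes, as 102 cells with 2 or more UMIs of Sox17, Hey1 and Gja4. It was set beside 282 cells with none, at median depths of 2369 and 1718.5 UMIs. Cells with exactly 1 such UMI were in neither set. The venule gene Glycam1 was at 2226 against 175 CPM, but 1 Glycam1-rich cell set that direction. Without the Glycam1-rich cells, 1 in the former and 2 in the latter, it was at 32.5 against 49.3 CPM, and Cd36 at 455 against 188 CPM. The part of depth was not tested. In the former, Sema3g was at 170.4 CPM (126 to 226) and in the latter at 50.7 CPM (33.7 to 73.2). Of other arterial genes outside the choice, Clu, Cxcl12, Edn1 and Efnb2 were higher in the former with intervals apart. Intervals of Dll4, Notch1, Ltbp4, Unc5b and Jag1 overlapped. Notch1 was at 206 CPM in the former and 197 CPM in the latter, and Jag1 at 10.7 and 18.1 CPM. Cd36 was at 447 (373 to 533) and 188 CPM (154 to 228), and Fabp4 at 2489 and 1458 CPM. Rgcc was lower beside the arterial genes, at 682 CPM (589 to 785) against 957 CPM (877 to 1042), and so was Aplnr, at 42.6 against 109 CPM. Fabp4 was also uneven between cells. It was found in 48.9% of capillary cells and 0.579% of deep WT-only cells, unthinned, with up to 142 UMIs in 1 cell and 26.2% of its UMIs in 10 cells.

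Rsad2, Ifit1, Ifit2, Ifit3, Isg15 and Irf7 together reached 5 or more UMIs in 70 cells (13.2%), at a median depth of 2487.5 UMIs against 1795.5 in the rest. Ly6a, a gene induced by interferon and outside the counted genes, was at 2177 CPM (1978 to 2390.0) there and 1568 CPM (1491 to 1648) in the rest. Of genes on the interferon list that were not counted, Ifitm3 was at 4011 CPM (3739 to 4297) and 2769.9 CPM (2667 to 2876), and Bst2 at 1130.4 and 702 CPM. Iigp1 was at 932 and 604 CPM, Igtp at 124 and 61.9 CPM and Ly6e at 2058 and 2060.4 CPM. The intervals of Ly6e, Usp18 and Gbp2 overlapped between both sets of cells, and those of Ifitm3, Bst2, Iigp1 and Igtp did not. Cxcl12 was lower, at 843 against 1345 CPM. Among genes of cell division, Mki67 had 9 UMIs in 2 cells, Top2a 11 in 5, Cdk1 10 in 7 and Tyms 24 in 18, at a depth where 0 UMIs do not show that a cell lacks the RNA.

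The same 532 cells were counted in the other libraries at lower depth, with medians of 1274.5 UMIs in LApc and 1379 in LApcL. Rgcc was at 822, 809.5 and 779 CPM in WT, LApc and LApcL. Flt1 was at 1778, 1798 and 1686 CPM. Car4 was at 55.6 (43.0 to 70.7), 44.6 (31.3 to 61.8) and 42.2 CPM (29.7 to 58.2). Glycam1 was at 841, 863 and 785 CPM. For each of these 4 genes, the counting intervals of the 3 libraries overlapped, although Car4 rested on 36 to 66 UMIs.

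Of 35 genes set side by side, 30 had counting intervals that overlapped between all 3 libraries. The other 5 were the rule genes Gpihbp1, Prox1 and Mmrn1, on whose WT counts the cells were chosen, and Epcam and Xist. Epcam was at 2.53 CPM (0.521 to 7.39) in WT, 12.4 CPM in LApc and 22.8 CPM (13.9 to 35.2) in LApcL. Xist, the RNA that silences an X chromosome, had 0, 8 and 0 UMIs, and Fabp1, a fatty acid binding protein of enterocytes, had 10, 0 and 0. Gpihbp1 was at 1269, 1139 and 1101 CPM in the 3 libraries and Rbp7 at 749.8, 671 and 689 CPM. Prox1, set to 0 by the choice in WT, was at 37.2 CPM in LApc and 14.8 CPM in LApcL. In LApc, 336 (63.2%) of the 532 cells again had 2 or more UMIs of Gpihbp1 and Rbp7, and in LApcL 360 (67.7%). Applied to each matrix by its own counts, the rule found 532, 401 and 459 cells. Of the WT cells, 309 (58.1%) were among the 401 LApc cells (77.1% of those) and 342 (64.3%) among the 459 LApcL cells (74.5%), and 237 were found in all 3.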

How the data were processed

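Single-cell RNA of small intestinal organoids was captured on the 10x Genomics Chromium platform, with reads from the 3′ end of transcripts. Per the file headers, the authors made the deposited counts, unnormalised UMI counts per gene and cell barcode, with Cell Ranger 6.0.1, while the submitters' processing notes name version 2.1.1. The genome build was mm10 (GRCm38). Because UMIs are counted at the 3′ end, levels do not scale with gene length.

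The matrices held 32285 genes. Cells outside the mitochondrial limit of 20% were left out, no doublets were removed from the set described, and 40 rows with a repeated symbol were summed. Levels were UMIs summed over cells and scaled to CPM. Exact Poisson intervals for levels, Clopper-Pearson intervals for shares and conditional binomial intervals for ratios were computed at the 95% level, and they cover counting error only. Log2 ratios used a pseudocount of 1 CPM and genes at 50 CPM or more in 1 of the groups compared, and a 2-fold ratio set the count of higher and lower genes. With 1 library per group and the same cells in each, no test was made. The interval code was tested on simulated Poisson counts. These follow the model of the intervals and hold no spread between cells, so they cannot show how the intervals do under such spread. Tools were Python 3.11.15, numpy 2.4.6, scipy 1.17.1, pandas 2.3.3 and scanpy 1.11.5.

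The cells and the 28 gene lists (355 genes) were chosen with earlier results of these data known. Named genes were the 8 rule genes, the list genes and the 12 highest and 12 lowest log2 ratios against the other shared cells. The division by Rbp7, its genes and the Glycam1-rich cells were chosen after values were seen. Positions came from GENCODE M21, which held 32158 of the gene identifiers, and upstream sequences from RefSeq. Alternatives varied the rule, matrix, depth, doublet removal by Scrublet, scaling, pseudocount and minimum level.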

Additional observations from a re-analysis of the deposited data

Results flagged for a closer look

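Outside the shared barcodes, 179 of 2992 WT-only cells within the mitochondrial limit (5.98%) also met the rule on Gpihbp1, Rbp7 and the 6 excluded genes, a signal outside the set described. Part of them were also among the deep WT-only cells used above. Their other genes differed from those of the capillary cells. Their median depth was 44830 UMIs, they held 984 UMIs of Rbp7 and 24 of Gpihbp1, and Epcam was at 1190 CPM (9802 UMIs) beside Pecam1 at 2.06 CPM (17 UMIs). In the LApc-only cells 1 of 3584 (0.0279%) met the rule, and in the LApcL-only cells 0 of 4644.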

How the results depend on the processing

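Of 18 alternatives, 17 were planned and 1 was added after seeing the data, as were the alternatives of the Rbp7 division. In the 16 that give ratios of single genes, all 102 named genes past 2-fold against the other shared cells kept their direction, and at most 10 fell under 2-fold, with cells thinned to 1000 UMIs. Of the main values 110 stayed close and 25 moved. The rule found 826 cells at a minimum of 1 UMI, 349 at 3 UMIs and 307 after thinning. Against the other shared cells, 61 genes were higher and 74 lower at a minimum of 200 CPM, and 780 and 2063 with no minimum, which adds genes of few UMIs. Against venule-marked cells the counts were 98 and 79, then 2336 and 1807, and 574 and 460 after thinning. The Rbp7 division gave 13 and 7, then 2199 and 1884, and 317 and 336 after thinning. It gave 41 and 36 at a rule minimum of 1 UMI, 136 higher at 3 UMIs, 48 and 34 with a pseudocount of 10 CPM and 112 lower in the LApc matrix, and the cause of these was not tested. The median of the fatty acid list was -0.21 as reported and ranged from -0.33 to 0.09, so its sign changed, with the same cells counted in the LApc matrix. Without the 4 Glycam1-rich cells, 528 cells gave 189 higher and 290 lower genes against the other shared cells. For doublet removal, the 298 WT cells with the highest Scrublet scores were left out of 6104 scored. That number was set beforehand by an assumed rate of 0.8% per 1000 cells. No paired analysis was possible because each group had 1 library and no test was made. Depth limits genes under about 50 CPM, and 0 UMIs in the capillary cells allow up to 2.53 CPM.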
